A study of Mus musculus with 9 samples.

Results

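The genes described here are 10 genes known from T cells, measured in mouse B-lymphoma cells with and without an inhibitor of the histone methyltransferase EZH2. They are Ctla4, Lef1, Tcf7, Il7r, Cd3e, Cd28, Thy1, Gata3, Tox and Bcl11b, picked by symbol from a count table of 45361 gene identifiers. The set was chosen because Ctla4, Lef1, Tcf7 and Il7r were higher with the inhibitors in these same libraries. Their differences from DMSO are therefore given as a description, without a test. The other 6 genes were tested in a fit over all genes. Of the 10 genes, 8 passed the filter on low counts, and Cd3e and Bcl11b did not.

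All cells were CH12F3, a mouse B-lymphoma line that switches its immunoglobulin class in culture, and all carried a Ligase4 knockout, which removes the ligase of classical end joining. Each culture had 24 h of stimulation by anti-CD40 with the cytokines IL-4 and TGF-β. The 3 groups of 3 libraries each received DMSO, tazemetostat (an inhibitor of EZH2) or valemetostat (an inhibitor of EZH1 and EZH2), and the question of the series was how transcription differs after either inhibitor. The sources used here give no dose, no length of the inhibitor treatment, no number of knockout clones and no word on whether replicates were separate cultures. The p-values therefore measure only how far these libraries differ from each other, and that spread may be technical. In bulk RNA, more cells with a transcript and more transcript per cell cannot be told apart.

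T cells recognise antigen through the T cell receptor, whose CD3 chains carry the signal into the cell. CD28 adds a costimulatory signal, and CTLA4 competes with it for the shared ligands CD80 and CD86. TCF1 (encoded by Tcf7), LEF1, GATA3, TOX and BCL11B are transcription factors that direct development in the thymus, and the IL-7 receptor supports survival of early lymphocytes. EZH2 is the catalytic subunit of the Polycomb complex PRC2, which methylates histone H3 and helps to keep genes of other lineages silent. Several of the 10 genes are also transcribed in some B-lineage cells, LEF1 and the IL-7 receptor in B cell precursors among them.

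The sequences upstream of Ctla4 and Lef1 are shown because both genes were higher with both inhibitors, and because CG dinucleotides near gene starts are a known feature of many Polycomb targets. The windows are the 250 bases before the most upstream start in RefSeq on build GRCm38.p6, which is not the build of the counts, and capitals mark each CG.
Ctla4, chr1:60908775-60909024, plus strand: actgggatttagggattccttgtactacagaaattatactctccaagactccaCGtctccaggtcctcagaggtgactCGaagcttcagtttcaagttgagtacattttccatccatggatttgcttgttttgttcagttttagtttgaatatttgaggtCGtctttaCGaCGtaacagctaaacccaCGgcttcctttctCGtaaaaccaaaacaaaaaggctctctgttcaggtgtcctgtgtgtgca
Lef1, chr3:131110047-131110296, plus strand: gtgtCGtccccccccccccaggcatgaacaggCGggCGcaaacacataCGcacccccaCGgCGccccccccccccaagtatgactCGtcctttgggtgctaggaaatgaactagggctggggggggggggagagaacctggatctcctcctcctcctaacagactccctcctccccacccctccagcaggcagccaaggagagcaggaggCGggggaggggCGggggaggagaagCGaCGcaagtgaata

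Windows were matched by symbol for 7 of the 10 genes. Those of Il7r, Cd3e and Bcl11b overlap exons of the same gene in GENCODE M21. That of Tcf7 lies where a longer form of the protein is encoded, so these windows were set aside. Those of Lef1 and Gata3 overlap exons of the antisense genes Gm43352 and Gm13256 over all 250 bases. CG was searched on the strand shown and reads the same on the opposite strand. Across 32851 such windows of the same length the median held 6 CG. Ctla4 had 7 CG (46.3% of windows held at least as many), Lef1 11 (35.6%) and Gata3 19 (19.7%). Among the windows set aside, Tcf7 held 37 CG (2.2%) and Il7r 1 (92.1%). Gata3 was not called with either inhibitor, and whether CG content goes with a rise was not tested.

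Library totals ran from 34080504 to 46675110 counts, so that 3 counts corresponded to 0.0632 to 0.087 CPM (counts scaled by the library total and its TMM factor). The fit with edgeR's quasi-likelihood test covered 12580 genes, and genes with an adjusted p (Benjamini-Hochberg) under 0.05 are referred to as called. The B-lineage label held in the data. Cd79a, a signalling chain of the B cell receptor, averaged 296, 330 and 343 CPM in the DMSO, tazemetostat and valemetostat libraries (edgeR adjusted p = 0.00741 and 0.000461). Pax5, the factor that maintains B cell identity, had a mean of 143, 128 and 123 CPM and did not pass (adjusted p = 0.173 and 0.0612). Cd79b, the partner of Cd79a, rose by 0.43 and 0.60 on the log2 scale, and Vpreb3 by 1.2 and 1.17 (largest edgeR adjusted p of these 1.4e-06). Of 12 T cell marker genes, Trbc1, Trbc2 and Bcl11b had 0 counts in all 9 libraries, and 1, Lck, was called higher with each inhibitor. Their summed level was 38.6 to 42.8, 49.4 to 51 and 51.4 to 57.6 CPM, of which Lck alone gave a mean of 38.3, 45.9 and 49.9 CPM. Of 6 NK cell markers 0 passed the filter and Ncr1, Klre1 and Eomes were at 0, with summed levels of at most 0.478 CPM. Of 8 myeloid markers Cd14 and S100a8 were at 0 and 4 passed the filter. Adgre1 and Lyz2 were called higher and Csf1r lower with each inhibitor. Lyz2 had 3, 167 and 145 summed counts, so it passed the filter only through the inhibitor libraries. The summed level of the myeloid markers was 30 to 33.3, 29.6 to 33.7 and 27.6 to 30.8 CPM. Over all tested genes 19.9% and 20.5% were called higher and 18.2% and 18.7% lower.

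Of the 8 measured genes, 7 were called higher with tazemetostat and the same 7 with valemetostat, and 0 were lower. The share of all tested genes called higher was 19.9% with tazemetostat and 20.5% with valemetostat, and 38.1% and 39.2% were called in either direction (18.2% and 18.7% lower). Nothing is read from the count, since 4 of the 7 were the reason for the choice. A transcript length was known for 12554 tested genes. Of these, genes with a mean log2 CPM of at least 3 and an absolute log2 fold change under 1 were used. That left out Tox, Il7r, Thy1 and Gata3 with each inhibitor, and Ctla4 with tazemetostat. Spearman's rho of the log2 fold change with the length of the longest transcript was -0.36 and -0.42. It is a description across genes, which are not replicates. The longest transcripts of the 8 genes ran from 1735 (Thy1) to 4347 bases (Cd28), around the median of 3240.5 for tested genes. With an offset for length and GC content, the log2 fold changes were 0.69 and 0.58 for Cd28, 1.05 and 1.14 for Tox, 2.58 and 2.20 for Thy1 and 1.02 and 0.82 for Ctla4. In all 7 genes no inhibitor library overlapped the DMSO libraries, which held for 24.1% and 24.8% of tested genes upward and for 23.3% and 23.7% downward. The 4 other measured genes were not a reason for the choice, although the members were chosen with earlier results of these data known. Among these 4, Cd28 and Tox rose with each inhibitor and Gata3 did not pass the test. Thy1 was called higher too, but it passed the filter on low counts only through the inhibitor libraries, so its call in this fit is not counted as support. Both comparisons use the same DMSO libraries.

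**Figure D1:**
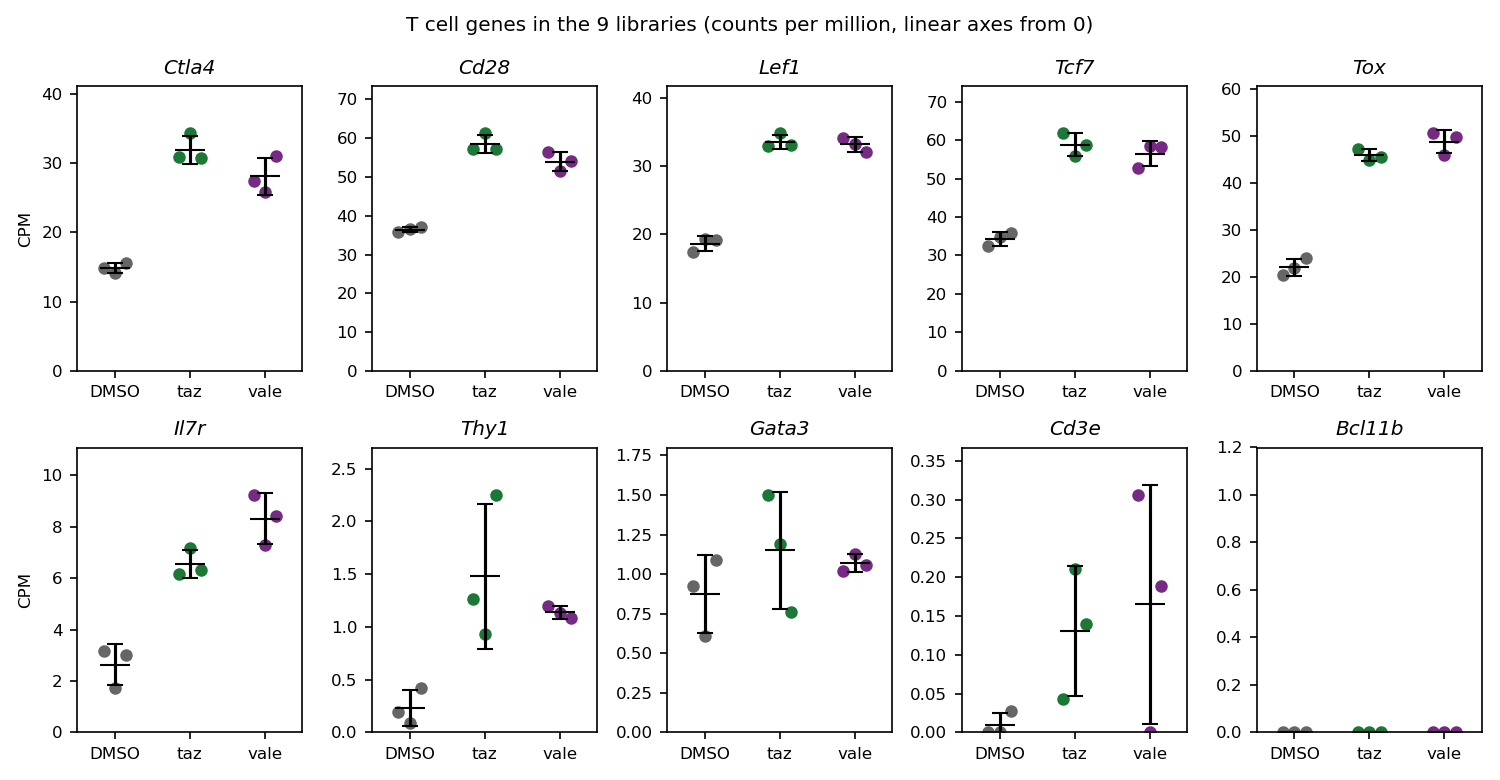
CPM of the 10 T cell genes in each library (points), with mean and SD of 3 libraries (bars), for DMSO, tazemetostat (taz) and valemetostat (vale). Each panel has its own linear axis from 0. In the panels of Ctla4, Cd28, Lef1, Tcf7, Tox, Il7r and Thy1 each inhibitor library lies above each DMSO library, the Gata3 groups overlap, Cd3e with valemetostat overlaps DMSO, and Bcl11b is at 0.

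Among the surface receptors, Ctla4, the inhibitory receptor, was at 14.8, 14.1 and 15.6 CPM in the DMSO libraries, at 30.9, 34.3 and 30.7 CPM with tazemetostat and at 27.4, 25.9 and 31 CPM with valemetostat. The DMSO libraries lay together and below all 6 inhibitor libraries, while the 2 inhibitor groups overlapped. The log2 fold change was 1.11 ± 0.08 (SE) with tazemetostat and 0.92 ± 0.08 with valemetostat, a ratio of 2.16 and 1.90. Its raw counts went from 487 to 700 per library in DMSO to 895 to 1473 with an inhibitor, so counting error was small.

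Cd28, the costimulatory receptor, was at 35.7, 36.6 and 37 CPM in DMSO, 57.1, 61.2 and 57.2 CPM with tazemetostat and 56.3, 51.6 and 54 CPM with valemetostat. The 3 groups did not overlap. It rose by 0.68 ± 0.06 on the log2 scale with tazemetostat (edgeR adjusted p = 1.37e-09) and by 0.57 ± 0.06 with valemetostat (edgeR adjusted p = 3.73e-08), and was higher in 6 of 6 inhibitor libraries. Per transcript length the pair was alike in DMSO, with Ctla4 at 11.4 ± 0.21 and Cd28 at 11.3 ± 0.387 TPM (the length-scaled unit of the deposited log2 table, SD, n = 3). With tazemetostat Ctla4 was at 23.2 ± 1.85 TPM and Cd28 at 17.3 ± 0.988 TPM, and with valemetostat they were at 20.4 ± 2.05 and 15.9 ± 0.951 TPM.

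Cd28 and Ctla4 are neighbours on mouse chromosome 1, and Icos, a costimulatory receptor of the same family, follows them in RefSeq's gene order. Icos had 0, 3 and 0 counts in DMSO, 15, 13 and 13 with tazemetostat and 25, 11 and 11 with valemetostat. It passed the filter only through the inhibitor libraries, and in a fit without that filter the edgeR adjusted p = 0.00372 and 0.00112. The ratio of summed counts was 12.9 (95% counting interval 4.12 to 65.1) and 16.6 (5.36 to 83.6). All 3 DMSO counts came from DMSO 2, and without that library the DMSO group had none. Without DMSO 1 the log2 fold changes of 3.52 and 3.86 became 2.85 and 3.20. It did not pass on log2(TPM + 1) values, where limma-trend gave an adjusted p = 0.159 and 0.0882. On the near side, Raph1 did not pass the test (0.14 ± 0.07 and 0.11 ± 0.07, edgeR adjusted p = 0.105 and 0.193), nor did Abi2 beyond it (0.09 ± 0.07 and -0.01 ± 0.07, adjusted p = 0.283 and 0.922). On the far side Pard3b rose by 0.26 ± 0.10 and 0.28 ± 0.10 (edgeR adjusted p = 0.0417 and 0.0301). The log2 fold changes of the 3 receptor genes were thus above those of the 3 flanking genes with each inhibitor, a difference between genes that was not tested. The flanking genes were taken by position after the values of the receptors were seen, and Ctla4 was chosen because it rose.

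**Figure D2:**
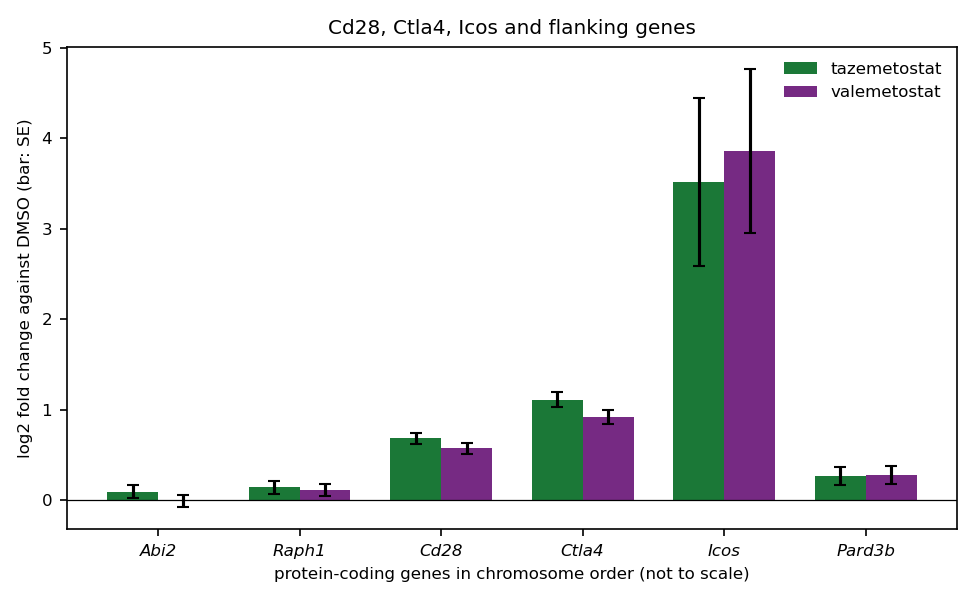
Log2 fold change against DMSO (bar, with SE) of 6 protein-coding genes in chromosome order, for tazemetostat and valemetostat, 3 libraries a group. Cd28, Ctla4 and Icos lie between 0.57 and 3.86 and the 3 flanking genes between -0.01 and 0.28. The Icos values rest on 3 DMSO counts, and Ctla4 was chosen because it rose.

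Il7r, the α chain of the IL-7 receptor, was lower in abundance, with 151, 59 and 107 counts in DMSO, 284, 307 and 225 with tazemetostat and 362, 251 and 311 with valemetostat. Its levels were 3.18, 1.71 and 3 CPM, 6.17, 7.15 and 6.32 CPM, and 9.23, 7.27 and 8.42 CPM, so that the 3 groups did not overlap and DMSO 2 was the lowest library. The log2 fold change was 1.30 ± 0.18 and 1.65 ± 0.18, a ratio of 2.46 and 3.13. Without DMSO 2 these were 1.08 and 1.43.

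Thy1, a glycoprotein of the surface of thymocytes and other cells, was near 0 in DMSO, with 9, 3 and 15 counts. It had 58, 40 and 80 counts with tazemetostat and 47, 39 and 40 with valemetostat. Every inhibitor library lay above every DMSO library, and tazemetostat 3 was the highest. The log2 fold change was 2.65 ± 0.49 with tazemetostat and 2.28 ± 0.50 with valemetostat. Since 2 of its 3 DMSO libraries held under 10 counts, Thy1 passed the filter only through the inhibitor libraries. Its edgeR adjusted p was 0.000122 and 0.000641 in the fit with that filter and 1.39e-07 and 9.51e-06 in a fit without it. Genes with many counts had smaller values without the filter too, such as Tox at 1.79e-46 and 1.96e-54. With limma-trend on log2(TPM + 1) values the adjusted p of Thy1 was 0.0125 and 0.0401. The ratio of summed counts was 6.22 (95% counting interval 4.14 to 9.71) and 4.96 (3.25 to 7.82). Without DMSO 3 the log2 fold changes were 3.33 and 2.96. With all libraries they were 0.84 and 0.63 on the log2(TPM + 1) scale and 2.05 and 1.69 on the log2(TPM + 0.1) scale. The added constant understates the change of low genes. In DMSO 3, TPM per CPM of Thy1 was also the highest of all libraries, at 2.16. How far each of these lowered the values was not tested. Its level stayed low, at 1.48 ± 0.685 and 1.14 ± 0.0586 CPM (SD, n = 3) against 0.232 ± 0.171 CPM in DMSO, and 1.42 ± 0.332 and 1.07 ± 0.176 TPM exceeded the levels of 15.6% and 13.5% of tested genes.

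Cd3e, a signalling chain of the T cell receptor, had 0, 0 and 1 counts in DMSO, 2, 9 and 5 with tazemetostat and 12, 0 and 7 with valemetostat. All tazemetostat libraries lay above DMSO, while valemetostat 2 was at 0, so that group overlapped DMSO. The ratio of summed counts, 16 and 19 against 1, was 15.1 (95% counting interval 2.35 to 633) and 20.2 (3.21 to 839). In a fit without the filter it did not pass, with edgeR adjusted p = 0.11 and 0.0711. At 0.133 ± 0.0902 and 0.21 ± 0.221 TPM (SD, n = 3) its level lay above that of 2.15% and 4.16% of the tested genes, of which it is not one.

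Of the transcription factors, Lef1 was at 17.4, 19.4 and 19.2 CPM in DMSO, 32.9, 34.8 and 33.1 CPM with tazemetostat and 34.2, 33.3 and 32.1 CPM with valemetostat. Its DMSO libraries lay below all inhibitor libraries, and the inhibitor groups overlapped. The log2 fold change was 0.85 ± 0.07 and 0.83 ± 0.07. Tcf7, its close relative in the TCF/LEF family that binds DNA with β-catenin, was at 32.4, 34.7 and 35.9 CPM, at 61.7, 55.8 and 58.8 CPM and at 52.7, 58.4 and 58.3 CPM in the same order of groups. It had the same pattern, with a log2 fold change of 0.78 ± 0.06 and 0.72 ± 0.07. Tcf7 was the most abundant of the 10 genes per transcript length, at 22.1 ± 0.351 TPM in DMSO, 35 ± 2.23 TPM with tazemetostat and 33.7 ± 1.87 TPM with valemetostat (SD, n = 3).

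Lef1 differed between the deposited tables in 1 library. Tazemetostat 2 had 31.43 TPM against 20.52 and 18.72 TPM in the other tazemetostat libraries, although its CPM was close to theirs. TPM per CPM of Lef1 was 0.90 in that library and 0.56 to 0.77 in the other 8. The same quotient for Tcf7 was 0.58 to 0.67 and for Cd28 0.29 to 0.32 over all 9 libraries, while that of Il7r ranged from 0.36 to 0.68. It ranged from 0.40 to 0.74 for Gata3 and from 0.80 to 2.16 for Thy1, with the highest Thy1 value in DMSO 3.

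Tox, an HMG-box factor of T cell development, was at 20.4, 21.8 and 24 CPM in DMSO, 47.3, 44.9 and 45.5 CPM with tazemetostat and 50.5, 45.9 and 49.8 CPM with valemetostat. The DMSO libraries lay below all 6 others, and the inhibitor groups overlapped. Tox rose by 1.06 ± 0.07 on the log2 scale with tazemetostat (edgeR adjusted p = 6.49e-12) and by 1.15 ± 0.07 with valemetostat (edgeR adjusted p = 1.35e-12), in 6 of 6 inhibitor libraries. Its rise was a ratio of 2.08 and 2.21. Tox had not been a reason for choosing the set, although the members were chosen with earlier results of these data known.

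Gata3, the regulator of early T cells and of type 2 helper cells, had 44, 21 and 39 counts in DMSO, 69, 51 and 27 with tazemetostat and 40, 39 and 39 with valemetostat. All 3 groups overlapped. The log2 difference was 0.39 ± 0.38 with tazemetostat (95% interval -0.38 to 1.17, edgeR adjusted p = 0.44) and 0.28 ± 0.38 with valemetostat (-0.50 to 1.06, adjusted p = 0.594). Those intervals hold both no change and a log2 difference of 1. Bcl11b, which commits thymocytes to the T lineage, had 0 counts in all 9 libraries, which allows up to 3 counts a library, or 0.0632 to 0.087 CPM, for counting error only.

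Ordered per transcript length in DMSO, the genes were Tcf7 (22.1 TPM), Lef1 (13.1 ± 1.44 TPM), Ctla4 and Cd28, Tox (7.85 ± 0.172 TPM), Il7r (1.07 ± 0.349 TPM), Gata3 (0.437 ± 0.0321 TPM), Thy1 (0.383 ± 0.458 TPM), Cd3e and Bcl11b. The DMSO libraries of Lef1 (11.55 to 14.41 TPM) overlapped those of Ctla4 (11.21 to 11.63 TPM) and Cd28 (11.06 to 11.79 TPM), and those of Gata3 lay within the range of Thy1 (0.08 to 0.91 TPM). The Thy1 mean rests on DMSO 3, the library with 0.91 TPM. The Tcf7 level exceeded that of 58.3% of tested genes and the Il7r level that of 14.8%. With tazemetostat these shares were 71% and 23.6%, and with valemetostat 70.2% and 26%. In size of fold change, 1.92% of tested genes had a larger log2 fold change than Thy1 with tazemetostat and 2.41% with valemetostat, 5.07% and 3.65% a larger one than Il7r, and 6.05% and 7.04% a larger one than Ctla4. For Cd28 these shares were 9.44% and 10.9%.

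**Figure D3:**
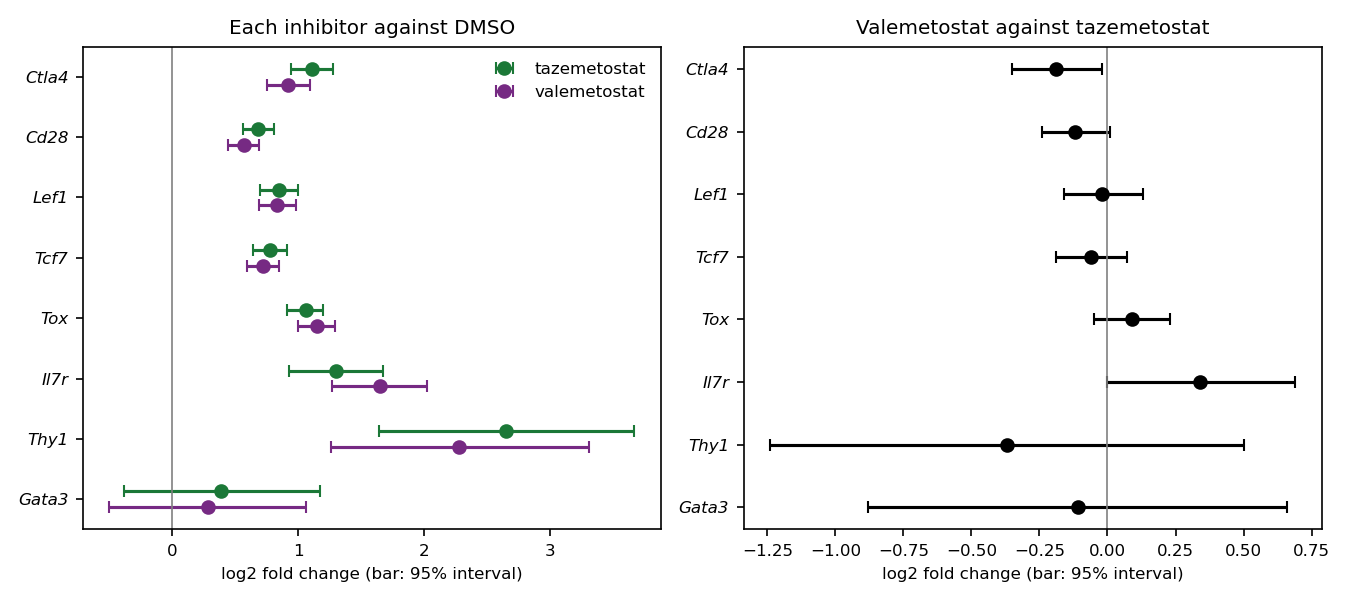
Log2 fold changes (points) with 95% intervals (bars) of the 8 measured T cell genes, for each inhibitor against DMSO (left) and for valemetostat against tazemetostat (right), 3 libraries a group. On the left the intervals of 7 genes lie above 0 and those of Gata3 hold 0. Ctla4, Lef1, Tcf7 and Il7r were chosen because they rose, so their intervals on the left are a description and not a test. Thy1 passed the filter on low counts only through the inhibitor libraries. On the right the points lie between -0.37 and 0.34.

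The inhibitors were also compared with each other, which the choice of genes did not use. Of the 8 measured genes 0 were called with edgeR and 0 with DESeq2, 1 had an unadjusted p under 0.05 (Ctla4), and 40 of all 12580 genes (0.318%) were called, 0.0636% higher and 0.254% lower with valemetostat. Ctla4 was at -0.19 ± 0.08 with valemetostat relative to tazemetostat (95% interval -0.35 to -0.02, edgeR adjusted p = 0.549) and Cd28 at -0.12 ± 0.06 (-0.24 to 0.01, adjusted p = 0.646). Il7r lay in the other direction, at 0.34 ± 0.17 (0 to 0.69, edgeR adjusted p = 0.627). The Cd28 and Il7r groups did not overlap, which held for 7.12% (lower) and 6.97% (higher) of all tested genes.

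For Lef1 the difference between the inhibitors was -0.02 ± 0.07 (95% interval -0.16 to 0.13), for Tcf7 -0.06 ± 0.06 (-0.19 to 0.07) and for Tox 0.09 ± 0.07 (-0.05 to 0.23), with edgeR adjusted p = 0.976, 0.874 and 0.811. The intervals of Thy1 (-1.24 to 0.50) and Gata3 (-0.88 to 0.66) were wide and also hold no difference. What size of difference could be detected at their depth was not tested.

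The lists that follow hold genes of T cell pathways. Each of their counts is to be read against the shares over all tested genes. These were 19.9% higher and 18.2% lower with tazemetostat and 20.5% and 18.7% with valemetostat. Genes chosen for their rise, and Thy1 and Icos, are left out of the counts. Of 9 genes of the receptor complex, 4 passed the filter, and 0 of them were called with either inhibitor by edgeR. Cd247, the ζ chain, had 15, 49 and 26 counts in DMSO, 69, 70 and 47 with tazemetostat and 27, 44 and 91 with valemetostat (0.88 ± 0.47 and 0.87 ± 0.47, edgeR adjusted p = 0.148 and 0.153). Cd3g and Cd3d had 16 and 31 summed counts in DMSO, 35 and 41 with tazemetostat and 33 and 24 with valemetostat. Trac, the α chain constant region, had 68, 65 and 30 summed counts. Trbc1, Trbc2 and Trdc were at 0 in all libraries.

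**Figure D4:**
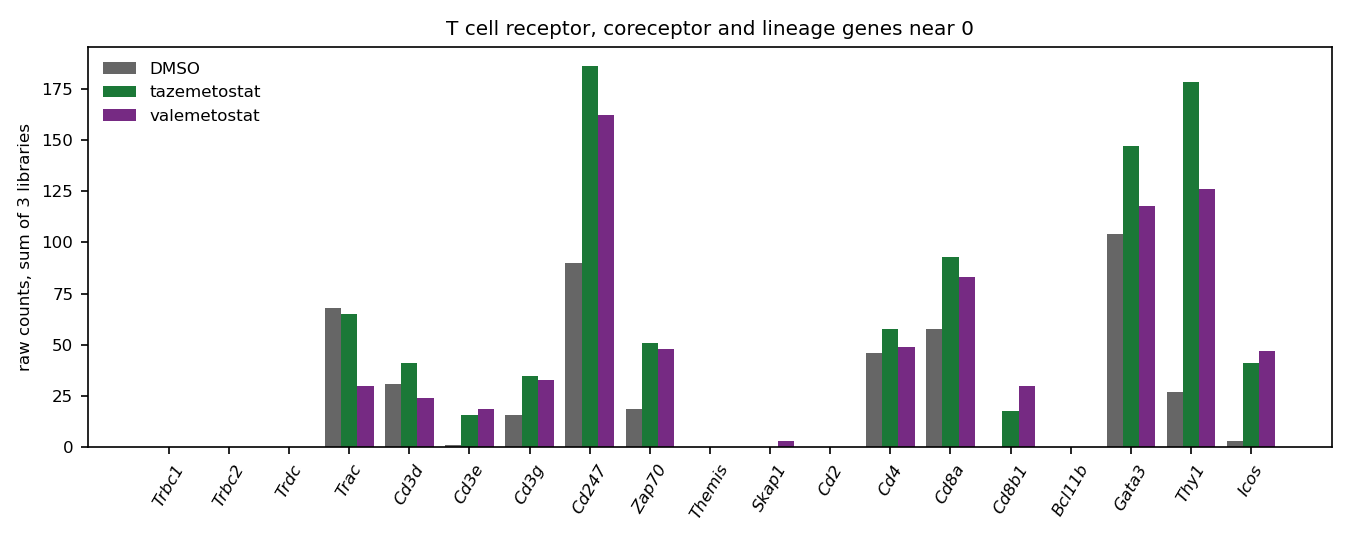
Raw counts summed over the 3 libraries of each group, on a linear axis from 0, for 19 genes of the T cell receptor, its coreceptors and the T lineage. Trbc1, Trbc2, Trdc, Themis, Cd2 and Bcl11b are at 0 in every group, and the highest bar is Cd247 with tazemetostat, at 186 counts.

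Among 10 measured genes of proximal receptor signalling 4 rose and 1 fell with each inhibitor. Over all tested genes 19.9% and 20.5% were called higher and 18.2% and 18.7% lower. The adaptor Lat rose from 1.39 ± 0.386 CPM to 3.8 ± 0.549 and 3.70 ± 0.871 CPM (SD, n = 3). The adaptor Sh2d2a rose by 0.46 ± 0.05 and 0.40 ± 0.05 on the log2 scale, Lcp2 by 0.28 ± 0.05 and 0.24 ± 0.05, and the kinase Lck by 0.27 ± 0.06 and 0.38 ± 0.06. The kinase Fyn fell by 0.47 ± 0.06 with each. The largest edgeR adjusted p of these 5 genes was 0.00164, for Lck with tazemetostat. With limma-trend on the log2(TPM + 1) table, Lck (adjusted p = 0.475 and 0.0863) and Lcp2 (0.052 and 0.109) did not pass. Zap70, the kinase that binds the CD3 chains, had 19, 51 and 48 summed counts and did not pass (edgeR adjusted p = 0.134 and 0.123).

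Of 8 measured coreceptors and surface antigens, without Thy1, 2 rose with each inhibitor and 0 fell, namely Cd7 and the chemokine receptor Ccr7. Cd7, an early T and NK lineage antigen, rose from 4.89 ± 0.554 CPM to 20.7 ± 1.42 and 20.1 ± 4.38 CPM (SD, n = 3, edgeR adjusted p = 3.29e-11 and 5.19e-11). Ccr7 rose by 0.29 ± 0.04 and 0.32 ± 0.04 from 361 ± 10.2 CPM. Cd5, which CH12F3 cells transcribed at 22.1 ± 2.77 CPM, did not pass (-0.03 ± 0.09 and 0.01 ± 0.09, adjusted p = 0.794 and 0.951). Cd4 and Cd8a had at most 39 counts in any library and did not pass. Cd8b1, the β chain of CD8, had 0 counts in DMSO, 7, 8 and 3 with tazemetostat and 11, 6 and 13 with valemetostat. That was 5.66-fold and 10.6-fold a floor of 3 counts over the DMSO group, without the counting error of the inhibitor counts. Cd8b1 was outside the filter and is named because of its values.

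In the CD28 and CTLA4 family with its ligands, without Ctla4 and Icos, 4 of 9 genes were higher and 2 lower with tazemetostat, and 2 were higher and 2 lower with valemetostat. Cd28 is among the higher genes in both. Icosl, the ligand of ICOS, rose from 46.6 ± 1.29 CPM to 69.5 ± 2.94 and 67 ± 3.79 CPM (SD, n = 3, edgeR adjusted p = 1.69e-08 and 9.28e-08). Btla, an inhibitory receptor of B and T cells, fell by 0.58 ± 0.08 and by 0.44 ± 0.08, and Cd80, a ligand of CD28 and CTLA4, by 0.20 ± 0.06 and by 0.27 ± 0.06 on the log2 scale. Cd86, the other ligand, rose by 0.20 ± 0.05 with tazemetostat (edgeR adjusted p = 0.00529) and was at 0.10 ± 0.05 with valemetostat (adjusted p = 0.14). Pdcd1, which encodes PD-1, rose by 0.74 ± 0.19 with tazemetostat (adjusted p = 0.00324) and was at 0.32 ± 0.19 with valemetostat (adjusted p = 0.207). The difference of Pdcd1 between the inhibitors did not pass (-0.42, adjusted p = 0.57).

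Of 7 other measured checkpoint and costimulatory receptors 4 rose with each inhibitor and 0 fell, where 19.9% and 20.5% of all tested genes were called higher. Tnfrsf9, which encodes 4-1BB, rose from 0.895 ± 0.0539 CPM to 3.26 ± 0.32 and 3.04 ± 0.473 CPM, and Havcr2, which encodes TIM-3, from 0.739 ± 0.141 CPM to 2.12 ± 0.266 and 2.38 ± 0.315 CPM (SD, n = 3). Tigit rose by 0.47 ± 0.13 and 0.45 ± 0.14 and Lag3 by 0.38 ± 0.10 with each (edgeR adjusted p = 0.00733, 0.00888, 0.00287 and 0.00266). With limma-trend on the log2(TPM + 1) table Lag3 did not pass (adjusted p = 0.0639 and 0.0655), nor did Tigit with valemetostat (0.0523). The Tigit calls were lost with a length and GC offset (edgeR adjusted p = 0.0641 and 0.111), and with valemetostat also without valemetostat 3 (0.0628).

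Partners and targets of Lef1 and Tcf7 were mixed. Of 12 measured genes of the TCF and LEF list, without those 2, 4 were higher and 3 lower with tazemetostat and 4 were higher and 5 lower with valemetostat. Ctnnb1, which encodes β-catenin, rose by 0.19 ± 0.04 and 0.20 ± 0.04 and the target Ccnd1 by 0.50 ± 0.06 and 0.38 ± 0.06 on the log2 scale. The target Myc fell by 0.28 ± 0.04 and by 0.20 ± 0.04, and Axin1, part of the complex that degrades β-catenin, by 0.30 ± 0.05 and by 0.29 ± 0.06. Axin2, a feedback target of the pathway, did not pass (edgeR adjusted p = 0.557 and 0.251). Tcf7l1 was at 0.19 and 0.13 and did not pass (adjusted p = 0.115 and 0.315), and Tcf7l2 had 3 counts in all.

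Of 14 measured T lineage transcription factors Tox was the single gene called higher with each inhibitor, while 3 fell with tazemetostat and 5 with valemetostat. The E protein gene Tcf3 fell by 0.24 ± 0.05 and by 0.18 ± 0.05 and Ikzf3, which encodes Aiolos, by 0.38 ± 0.05 and by 0.36 ± 0.05 on the log2 scale. Id3, an inhibitor of E proteins, fell by 0.42 ± 0.11 with valemetostat (edgeR adjusted p = 0.00449) and was at -0.10 ± 0.11 with tazemetostat (adjusted p = 0.499). Dtx1, a Notch regulator, was called lower with tazemetostat (-0.38 ± 0.15, edgeR adjusted p = 0.0455), a call that 14 of the 19 alternative settings ended. Runx1 and Runx3 did not pass, and Tox2, Ikzf2 and Bcl11b were at 0. Of 3 measured paralogues 1 was called higher and 1 lower with each inhibitor. Bcl11a was at -0.16 ± 0.05 with tazemetostat (edgeR adjusted p = 0.0186) and Tox4 at -0.11 ± 0.04 with valemetostat (adjusted p = 0.0436), and 6 and 15 of the 19 alternative settings ended these calls. Gata1 rose by 1.07 ± 0.35 and 0.98 ± 0.35 (edgeR adjusted p = 0.0171 and 0.0284), from 0.791 ± 0.27 CPM (SD, n = 3). Gata1 did not pass once DMSO 1 (edgeR adjusted p = 0.0622 and 0.0899) or DMSO 3 (0.0551 and 0.0818) was left out. The same held for tazemetostat 1 in the tazemetostat comparison (0.0694), for valemetostat 1 (0.069) and 3 (0.118) in the other, and for limma-trend on log2(TPM + 1) values (0.156 and 0.166).

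Of 6 measured factors of helper and killer lineages 3 rose and 1 fell with each inhibitor. Rora, a nuclear receptor of helper and innate lymphoid cells, rose from 6.43 ± 1.01 CPM to 13.2 ± 1.95 and 12.5 ± 1.78 CPM (SD, n = 3), Stat4, the transducer of IL-12 signals, by 0.67 ± 0.08 and 0.60 ± 0.08, and Batf, an AP-1 factor of activated lymphocytes, by 0.49 ± 0.05 and 0.36 ± 0.05 on the log2 scale. Irf4 fell by 0.29 ± 0.05 and by 0.30 ± 0.05. Tbx21, the factor of type 1 helper cells, was under the filter, with 8, 5 and 8 counts in DMSO, 1, 0 and 0 with tazemetostat and 0, 4 and 0 with valemetostat. Foxp3 had 1, 7 and 4 counts in DMSO, 5, 4 and 2 with tazemetostat and 0 in each valemetostat library. In a fit without the filter neither passed (edgeR adjusted p = 0.0827 and 0.356 for Tbx21, 0.93 and 0.0607 for Foxp3). Maf had 3 counts in all, and Eomes and Bcl6 had 0 in all libraries.

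In the IL-7 receptor pathway and the common γ chain family, without Il7r, 5 of 16 measured genes were higher and 3 lower with tazemetostat, and 6 were higher and 3 lower with valemetostat. Il2rg, the common γ chain that pairs with the IL-7 receptor, rose by 0.35 ± 0.05 and 0.30 ± 0.05 from 134 ± 6.09 CPM (SD, n = 3). Il2rb rose by 0.60 ± 0.08 and 0.58 ± 0.08 and Cish, a target and inhibitor of STAT5, by 1.08 ± 0.08 and 1.26 ± 0.08 on the log2 scale. Stat5a rose by 0.28 and 0.25 and Stat5b by 0.31 and 0.23. Jak1 and Jak3, the kinases of the receptor, did not pass. Il21r fell by 0.34 ± 0.04 and by 0.31 ± 0.04, and Il9r by 0.33 ± 0.05 and by 0.27 ± 0.05. Socs1 was called lower with tazemetostat (-0.22 ± 0.06, edgeR adjusted p = 0.00804) and not with valemetostat (adjusted p = 0.239). Il2ra was called lower with valemetostat (-0.35 ± 0.10, edgeR adjusted p = 0.00762) and not with tazemetostat (adjusted p = 0.382). The cytokines Il7 and Tslp had 0 counts in all libraries.

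Of 12 effector products of T cells 3 passed the filter, and 1, the pore protein gene Prf1, rose with each inhibitor, from 12.7 ± 0.884 CPM to 19.1 ± 1.82 and 18.7 ± 1.2 CPM (SD, n = 3, edgeR adjusted p = 2.14e-05 and 5.07e-05). Gzma, a granzyme, had 0 counts in DMSO, 10, 5 and 14 with tazemetostat and 12, 5 and 5 with valemetostat. That was 9.13-fold and 7.79-fold the floor of 3 counts over the DMSO group, without the counting error of the inhibitor counts. Gzma was outside the filter and is named because of its values. Ifng had 2 counts in all and Il2 had 0.

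**Figure D5:**
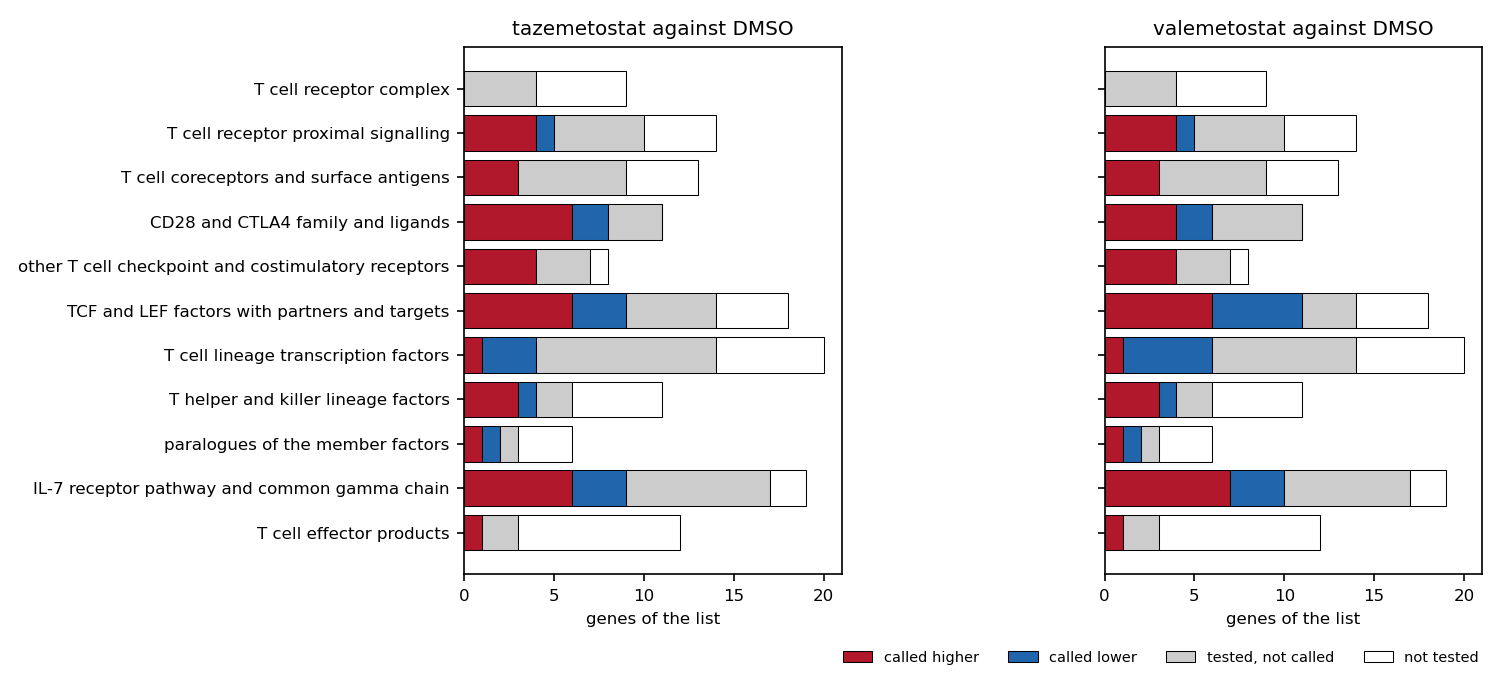
Number of genes called higher, called lower, tested without a call and not tested (low counts or not matched) in 11 lists of T cell pathway genes, for tazemetostat (left) and valemetostat (right) against DMSO. The lists include the 10 T cell genes. The receptor complex list has 0 called genes, and the T lineage factor list has 1 called higher against 3 and 5 called lower.

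Over all lists and without the 10 genes, 90 of 130 pathway genes were tested, Icos included. With tazemetostat 28 (31.1%) of these rose and 14 (15.6%) fell. With valemetostat the numbers were 27 (30%) and 18 (20%). Icos, which passed the filter only through the inhibitor libraries, is among the rises with each inhibitor. The corresponding shares were 19.9% and 18.2%, and 20.5% and 18.7%, over all tested genes. Their median log2 fold change was 0.12 and 0.13. On log2(TPM + 1) values 18 and 16 of them rose. A further 40 were under the filter, 17 of them at 0 in all libraries. Between the inhibitors 0 of the 90 were called by edgeR.

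The genes beside the 10 T cell genes were read in RefSeq's order, with up to 2 protein-coding genes on each side, after the values of the 10 were known. Of 29 tested flanking genes tazemetostat gave 9 rises and 2 falls and valemetostat 14 rises and 7 falls, with a median log2 fold change of 0.14 with each. Over all tested genes 19.9% were called higher and 18.2% lower with tazemetostat, and 20.5% and 18.7% with valemetostat. The rises with each inhibitor include Icos, which passed the filter only through the inhibitor libraries. Trim29 and Capsl, called higher with valemetostat, had means of only 0.226 and 0.259 CPM in DMSO. Nothing is read from these counts. Mpzl2, an adhesion gene beside Cd3e, went from 14.2 to 40.2 and 35.4 CPM, a rise of 1.51 ± 0.11 and 1.33 ± 0.11 on the log2 scale (edgeR adjusted p = 1.01e-09 and 6.8e-09). Hadh, a fatty acid oxidation gene beside Lef1, rose by 0.48 ± 0.07 and 0.55 ± 0.07, and Nsmaf, beside Tox, fell by 0.40 ± 0.07 and by 0.37 ± 0.07. The genes on either side of Tcf7, Skp1 and Vdac1, were at 0.08 and 0.12 with tazemetostat and at 0.15 and 0.12 with valemetostat, of which Skp1 with tazemetostat did not pass (edgeR adjusted p = 0.251).

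The tested genes whose log2 CPM followed each of the 4 genes most closely over the 9 libraries were found by Pearson's r, as a description. The libraries fall into groups and share their normalization, and 4.9% to 9.12% of tested genes had r over 0.9 with one of the 4. For Ctla4 these were Lmna (0.994), Grk2 (0.993) and Tdpoz5 (0.991), for Lef1 Nrep (0.998), Tcp11x2 (0.997) and Ptgs1 (0.997), for Tcf7 Ppp2r1a (0.996), Sh2d2a (0.994) and Iqgap2 (0.993), and for Il7r Rcan1 (0.987), Gm11451 (0.986) and St8sia4 (0.985). Among those nearest to Tcf7, Ppp2r1a differed from DMSO by 0.30 and 0.28 on the log2 scale, while Iqgap2 had a mean of 0 CPM in DMSO and of 0.74 and 0.696 CPM with the inhibitors.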

How the data were processed

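RNA of 9 libraries, 3 each with DMSO, tazemetostat and valemetostat, was measured by poly(A) RNA-seq, per the labels' protocols. The authors deposited whole-number counts per gene and library, and a table of log2 values that are log2(TPM + 1), since 2 to the value minus 1 gave whole hundredths of TPM in 100% of values at a tolerance of 1e-04 hundredths. The submitters' processing notes name build mm9. Aligner, counting program, annotation and use of strand are steps not given in the sources used here. Reads of overlapping and antisense genes cannot be told apart. In GENCODE M21, Lef1, Tcf7, Cd3e, Gata3 and Tox overlap genes on the opposite strand.

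Counts were tested with edgeR 4.0.16 in R 4.3.3, with TMM, filterByExpr (minimum count 10, minimum total 15), robust quasi-likelihood F tests and Benjamini-Hochberg adjustment over 12580 genes, all 9 libraries in 1 fit. Each standard error is the size of the log2 fold change divided by the root of its F statistic, and 95% intervals use the t distribution of the fit. Library totals of 34080504 to 46675110 counts set the floors of 3 counts. Intervals on counts and floors cover counting error only. On simulated counts of 12580 genes with the spread of these data, 50 genes were changed 1.5-fold, 100 genes 2-fold and 50 genes 4-fold. The tazemetostat comparison recovered 86%, 89% and 98% of these, with 6.2% of calls false. Genes with low mean counts were given no change, so recovery near the floor was not measured. The data had far more called genes, 4794 with tazemetostat. No replicate pair agreed within sampling noise (chi-square per degree of freedom 5.28 to 13.74). Columns of samples outside the labels numbered 0.

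The members, lists and rules were chosen with earlier results of these data known. Named genes are the 10 genes, up to 4 called members per list with the smallest p and a mean of at least 1 CPM, and the 3 genes most like each of Ctla4, Lef1, Tcf7 and Il7r. Other genes are named by position, by role or for their counts, and were chosen after their values were seen. No set test was run. The summed level of the B cell markers is not reported here. Alternatives were DESeq2 1.42.0, median-ratio factors, library totals, 2 other filters, limma-trend (limma 3.58.1) on log2(TPM + 1) and log2(TPM + 0.1), the replicate number as a term, the compared groups alone, a length and GC offset and leaving out each library.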

Additional observations from a re-analysis of the deposited data

How the results depend on the processing

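Cd28 and Tox were called higher with each inhibitor in each of the 19 alternative settings, and Gata3 in 0. Thy1 was called in each too, but it passed the filter only through the inhibitor libraries, so this is not counted as support. Between the inhibitors 0 of the T cell genes were called in each setting. Against DMSO 4794 and 4927 genes were called with tazemetostat and valemetostat, and 3926 to 4781 and 4072 to 5009 when each library was left out. With tazemetostat 3123 were called on log2(TPM + 1) and 3194 on log2(TPM + 0.1) values, and higher genes made up 37.7% and 39.1% of calls there, against 52.3%. With valemetostat that share was 36% and 37.1%, against 52.3%. The cause was not tested. Between the inhibitors 40 genes were called, 93 without a filter, 75 with DESeq2, 80 with the length and GC offset, 1 on log2(TPM + 1) and 1 on log2(TPM + 0.1) values, and 9 to 73 when each library was left out. Of these, 11, 19 and 73 were called without tazemetostat 1, 2 and 3, and 13 and 9 without valemetostat 1 and 2.

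Of the pathway genes outside the 10, Icos included, 28 rose with tazemetostat (18 on log2(TPM + 1) values, 28 to 31 with a library left out). With valemetostat 27 rose (16 on log2(TPM + 1) values, 24 to 30). Falls numbered 14 (10 to 14) and 18 (13 to 19). On log2(TPM + 1) values Thy1 was at 0.84 and 0.63 (2.05 and 1.69 on log2(TPM + 0.1)). Ctla4 was at 0.96 and Tcf7 at 0.64 with tazemetostat (Tcf7 0.66 on log2(TPM + 0.1)), and Lef1 at 0.61 and Tcf7 at 0.59 with valemetostat (Lef1 0.64 on log2(TPM + 0.1)).

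Sign changes arose for values that had not passed. Between the inhibitors Lef1 was at 0.01 without tazemetostat 2 and 0.01 without valemetostat 3, Thy1 at 0.05 without tazemetostat 3 (range -0.61 to 0.05 over the libraries left out), and Gata3 at 0.13 without tazemetostat 1 (-0.34 to 0.13), 0.02 on log2(TPM + 1) and 0.07 on log2(TPM + 0.1) values. With valemetostat against DMSO Dtx1 was at -0.02 without DMSO 3, -0.06 without valemetostat 2 (-0.06 to 0.06) and 0 with library totals, and Bcl11a at 0.01 with the length and GC offset.

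Replicate numbers did not pair the libraries, since same-numbered libraries had correlations of deviations from the group means of -0.04 to 0.076. With the replicate block 4527, 4714 and 32 genes were called in the 3 comparisons, and among named genes the calls of Dtx1 with tazemetostat and Tox4 with valemetostat were lost. Depth limits Cd3e, Bcl11b, Thy1, Gata3 and Icos, for which the counts are given.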
